A study of Homo sapiens with 40 samples.

Results

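CCN1 and CCN2 and a set of genes around the YAP-TEAD transcription complex were followed through the response of HER2-positive breast cancer cells to EGF and heregulin (HRG). The set held 10 genes, namely CCN1, CCN2, ANKRD1, AMOTL1, AMOTL2, LATS2, AJUBA, YAP1, WWTR1 and TEAD1, and was taken by gene name from the 44584 genes of the count table. BT474 is a HER2-amplified breast cancer cell line that responds to the anti-HER2 antibody trastuzumab, and BT474R (BT474 clone 5) is a single clone that came from BT474 after several weeks of growth with trastuzumab. Cells of both lines were serum starved, and T0 cells were collected at the end of starvation. The remaining cells were given fresh starvation medium with vehicle (water), EGF at 50 ng/mL or HRG at 10 ng/mL and were collected 1 h, 12 h or 24 h later. This gave 20 groups, and RNA of 2 samples per group was sequenced, for 40 libraries. Since BT474R was 1 clone, clone and trastuzumab history cannot be told apart in any comparison between the lines.

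YAP (from YAP1) and TAZ (from WWTR1) are transcriptional co-activators that bind DNA through the TEAD factors, of which TEAD1 is one. The kinases of the Hippo pathway, LATS2 among them, phosphorylate YAP and TAZ and keep them in the cytoplasm, where they are degraded. Angiomotin-like proteins (AMOTL1, AMOTL2) hold YAP at junctions and on actin, and AJUBA is a LIM-domain protein that binds and restrains LATS kinases. CCN1 (CYR61) and CCN2 (CTGF) are secreted matricellular proteins, and ANKRD1 is a nuclear ankyrin-repeat protein. These 3 genes are the usual readouts of YAP-TEAD activity, and AMOTL2 and LATS2 are themselves YAP-TEAD targets that feed back on the pathway. CCN1 and CCN2 are also immediate early genes of serum and growth factors.

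The stretches of 250 bases before the annotated start were read for the members with an entry in the RefSeq promoter table (GRCh38.p14), to show the sequence around which TEAD regulation of these genes is usually discussed. An entry was found for 8 of the 10 members, all but CCN1 and TEAD1, with 11 starts in all. The TEAD hexamer GGAATG was searched on both strands (CATTCC on the other strand). It was present in 5 of the 11 windows, 1 for each of 5 members, and in 11.9% of the 35116 windows of the table. The CCN2 window held 3 copies, a number reached or passed by 0.0826% of all windows, and ANKRD1 held 2, the number reached or passed by 0.94% of windows. AMOTL2, AJUBA and YAP1 had 1 copy each. The CCN2, ANKRD1 and AMOTL2 windows are printed below 5′ to 3′ along the gene's strand, with the hexamer in capitals. CCN2 lies on the minus strand at chr6:131951373-131951622, ANKRD1 on the minus strand at chr10:90921088-90921337, and the AMOTL2 start with the hexamer on the minus strand at chr3:134374448-134374697.
CCN2: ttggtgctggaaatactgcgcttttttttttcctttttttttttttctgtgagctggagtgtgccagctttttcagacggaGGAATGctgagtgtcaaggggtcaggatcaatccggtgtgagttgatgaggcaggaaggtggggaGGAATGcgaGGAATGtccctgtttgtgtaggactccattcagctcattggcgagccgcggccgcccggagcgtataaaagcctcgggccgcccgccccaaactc
ANKRD1: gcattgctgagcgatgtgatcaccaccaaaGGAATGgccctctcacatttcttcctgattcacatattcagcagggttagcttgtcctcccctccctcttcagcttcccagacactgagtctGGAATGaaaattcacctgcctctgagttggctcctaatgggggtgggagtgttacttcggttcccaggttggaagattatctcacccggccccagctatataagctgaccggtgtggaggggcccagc
AMOTL2: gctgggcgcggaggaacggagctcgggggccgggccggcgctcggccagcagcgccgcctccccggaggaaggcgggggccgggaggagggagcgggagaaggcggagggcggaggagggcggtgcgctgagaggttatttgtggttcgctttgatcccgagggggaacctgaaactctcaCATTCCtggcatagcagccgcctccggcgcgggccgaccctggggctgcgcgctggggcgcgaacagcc
The copies in CCN2 began 169, 104 and 95 bases before the start, those in ANKRD1 220 and 128 bases before it, and the copy in AMOTL2 69 bases before it on the opposite strand. The AP-1 string TGANTCA was found in 1 window, that of ANKRD1, against 6.57% of all windows, and the CArG box of SRF in none of the 11, against 1.16% of all windows. None of the searched motifs contains another. Presence of a motif describes the letters alone.

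Libraries held 16794594 to 33387936 counted reads, and levels are given as CPM (reads per 1000000 counted reads) scaled by TMM (trimmed mean of M values). A count of 3 in a library, the floor used here, corresponded to 0.0929 to 0.18 CPM. Replicates of a group differed by more than counting noise in every group, and the study describes them as duplicate treatments without saying whether they came from separate cultures, so p-values measure the spread between these samples, which may be technical. Of the 7 luminal epithelial markers, none was at the floor in either line, with summed levels of 11663 to 15514 CPM in BT474 and 10700 to 17162 CPM in BT474R, although GATA3, a luminal transcription factor, was at 307 to 546 CPM in BT474 and at 10.6 to 55.5 CPM in BT474R. The 7 markers of fibroblasts, endothelium and blood summed to 90.02 to 120.4 CPM in BT474 and 181 to 307 CPM in BT474R. COL1A1 (75.1 to 294.7 CPM) and VWF (8.61 to 23 CPM) made up nearly all of it, while PTPRC and CD3E had at most 2 counts in any library. Their part in the differences between the lines was not tested. In bulk RNA, fewer cells with a transcript and less transcript per cell cannot be told apart.

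All 10 members could be tested in BT474, and 9 in BT474R and in the fit of both lines, since ANKRD1 had counts in too few libraries there. A gene was called changed when the adjusted p of edgeR's quasi-likelihood test was under 0.05. At 1 h the members that moved with ligand all rose, and at 12 h and 24 h most changes were small and went in both directions. In BT474, EGF raised 4 of 10 members at 1 h, where 1.65% of all genes tested were called up, and lowered none, where 0.533% were called down. HRG raised 4 and lowered none, against 2.16% up and 0.604% down among all genes. At 12 h EGF raised 1 and lowered 3 (9.04% and 6.99% of all genes), and HRG raised 3 and lowered 2 (13.3% and 12.5%). At 24 h EGF raised 1 and lowered 2 (9.71% and 6.65%), and HRG raised 2 and lowered 4 (12.5% and 11.6%). In BT474R, EGF raised 3 of 9 members at 1 h and lowered none (0.416% of all genes up and 0.0412% down), and HRG raised 2 and lowered none (0.169% up and 0% down). At 12 h the number called was 0 with both ligands (EGF 6.85% up and 5.13% down among all genes, HRG 2.38% and 1.73%). At 24 h EGF raised 2 and lowered none (9.95% and 7.37%), and the count with HRG was 0 (1.89% and 0.889%). Where edgeR called none in BT474R, the unadjusted p was under 0.05 for 2 members with EGF at 12 h and for 1 member with HRG at 12 h and at 24 h, and DESeq2 called 1, 0 and 0 members. The median log2 fold change of the members at 1 h was 0.27 with EGF and 0.37 with HRG in BT474 and 0.06 and 0.03 in BT474R, beside medians within 0.01 of 0 over all genes tested. The 10 members were chosen with earlier results in view, so these shares describe them and are no test of the set.

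CCN2 rose most of the members. In BT474 the T0 samples held 0.309 and 0.147 CPM of CCN2 (8 and 3 counts). Vehicle samples at 1 h were at 11.9 and 8.83 CPM, EGF samples at 375.9 and 373 CPM and HRG samples at 604.6 and 562 CPM. None of these 4 groups overlapped with another, and the EGF and HRG samples stood far above all the rest. At 12 h and 24 h every BT474 sample had returned to between 0.176 and 0.764 CPM. Against vehicle at 1 h the log2 fold change was 5.16 ± 0.07 (SE) with EGF (adjusted p = 1.2e-36) and 5.81 ± 0.07 with HRG (adjusted p = 1.6e-38), or 35.8-fold and 56.1-fold. At 12 h and 24 h neither ligand gave a call, with log2 fold changes from -0.59 to 0.68 and standard errors of 0.38 to 0.49.

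In BT474R, CCN2 also rose at 1 h, from a far lower level and with smaller log2 fold changes than in BT474. The difference between the lines in this response is tested further below. T0 samples held 1 and 0 counts, and vehicle samples at 1 h were at 0.127 and 0.341 CPM. EGF samples reached 3.65 and 3.35 CPM and HRG samples 4.03 and 2.08 CPM, so that the ligand groups overlapped with each other and lay above the vehicle group. Against vehicle, EGF changed it by 3.79 ± 0.42 in log2 (adjusted p = 2.8e-05) and HRG by 3.61 ± 0.43 (adjusted p = 0.00018). At 12 h and 24 h no BT474R sample had more than 1 count, which lies under the floor, and no fold is given there. In summed counts, CCN2 was 107-fold higher in BT474 than in BT474R after 1 h of EGF (95% interval 92.2 to 125, counting error only), 187-fold after HRG (162 to 219) and 41.1-fold after vehicle (24.3 to 75.8). The vehicle ratio rests on 14 BT474R counts.

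CCN1 followed the same course with a smaller range and a higher starting level. In BT474, T0 samples were at 11.8 and 10.8 CPM and 1 h vehicle samples at 32.7 and 32.2 CPM. With EGF for 1 h they reached 238 and 229 CPM and with HRG 322 and 312 CPM, again without overlap between any of these groups. The log2 fold change against vehicle was 2.82 ± 0.06 with EGF (adjusted p = 8.5e-31) and 3.28 ± 0.06 with HRG (adjusted p = 4.4e-33). By 12 h all BT474 samples were between 12.2 and 17 CPM. CCN1 was then slightly below vehicle with EGF at 12 h (-0.25 ± 0.09, adjusted p = 0.044), with HRG at 12 h (-0.29 ± 0.08, adjusted p = 0.0071) and with HRG at 24 h (-0.32 ± 0.09, adjusted p = 0.0038). The first was not called without vehicle replicate 1 (-0.17) or EGF replicate 2 (-0.15), with DESeq2 (adjusted p = 0.0613), with its size factors in edgeR (0.0535) or with the compared libraries alone (0.0604). The second was not called without vehicle replicate 1 (-0.22) or HRG replicate 1 (-0.16), and the third without vehicle replicate 2 (-0.29).

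In BT474R, CCN1 started at 15.1 and 14.3 CPM at T0 and stood at 23.4 and 24.3 CPM after 1 h of vehicle. EGF samples at 1 h were at 45.9 and 51.8 CPM and HRG samples at 43.5 and 32.6 CPM. Both ligand groups lay above vehicle and below both BT474 ligand groups, and the HRG samples were the more spread. The log2 fold change was 1.03 ± 0.10 with EGF (adjusted p = 1.1e-06) and 0.68 ± 0.10 with HRG (adjusted p = 0.0012), and the latter was not called without HRG replicate 1 (0.46) or vehicle replicate 1 (0.66). At 12 h and 24 h the BT474R samples ranged from 11.9 to 17.7 CPM and no ligand group was called.

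**Figure D1:**
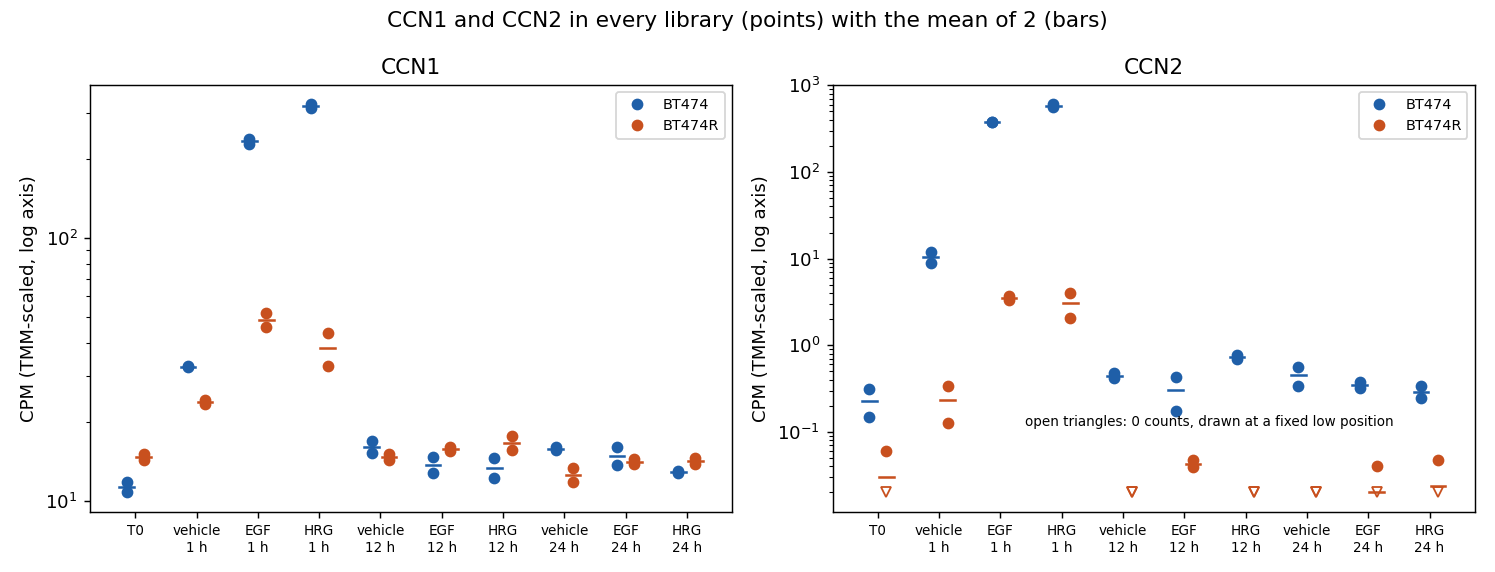
CCN1 (left) and CCN2 (right) in every library, in TMM-scaled CPM on a log axis, for T0 and for vehicle, EGF and HRG at the 3 times. Points are libraries (BT474 blue, BT474R orange), bars are means of 2, and open triangles mark libraries with 0 counts at a fixed low position. Both genes peaked at 1 h with ligand, with CCN2 at 373 to 604.6 CPM in BT474 and 2.08 to 4.03 CPM in BT474R.

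ANKRD1, the third usual readout, was close to absent. Its largest value in BT474 was 0.574 CPM, in an HRG sample at 1 h, and at 12 h and 24 h no BT474 sample passed 0.135 CPM. At 1 h in BT474 the vehicle samples held 10 counts in all, the EGF samples 22 and the HRG samples 24. The ratio to vehicle was 1.77 with EGF (95% interval 0.805 to 4.19) and 2.55 with HRG (1.17 to 5.96), both intervals for counting error only, and neither was called in the fit. In BT474R no sample was above 0.102 CPM. Changes of ANKRD1 were thus not detectable at this depth in BT474R or at the later times in BT474.

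Of the angiomotin-like genes, AMOTL2 rose at 1 h and AMOTL1 fell later. AMOTL2 in BT474 was at 55.5 and 53.8 CPM at T0, 113 and 115 CPM after 1 h of vehicle, 222 and 209 CPM with EGF and 233 and 233 CPM with HRG. The ligand groups lay above vehicle, by 0.90 ± 0.05 on the log2 scale with EGF (adjusted p = 4.7e-17) and 1.02 ± 0.05 with HRG (adjusted p = 7.5e-19). In BT474R it was at 32.3 and 31.9 CPM with vehicle, 47.9 and 49.7 CPM with EGF and 41.1 and 34 CPM with HRG. Only the EGF effect was called there (0.60 ± 0.10, adjusted p = 0.002), and not without vehicle replicate 2 (0.60, adjusted p = 0.054), while HRG gave 0.23 ± 0.10. Later, AMOTL2 was higher than vehicle with HRG in BT474 at 12 h (0.27 ± 0.06, adjusted p = 0.00027) and with EGF in BT474R at 24 h (0.47 ± 0.13, adjusted p = 0.012). The BT474R call was lost without vehicle replicate 1 (0.41) or EGF replicate 2 (0.40).

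AMOTL1 in BT474 was not called at 1 h (0.04 ± 0.04 with EGF, 0.07 ± 0.04 with HRG). At 12 h vehicle samples were at 169 and 170.1 CPM, EGF samples at 137 and 134 CPM and HRG samples at 137 and 141 CPM. At 24 h vehicle samples were at 158 and 169 CPM, EGF samples at 114 and 114 CPM and HRG samples at 105 and 115 CPM. Every ligand sample was below every vehicle sample at both times. At 12 h it fell by 0.34 ± 0.04 (EGF) and by 0.32 ± 0.04 (HRG) on the log2 scale (adjusted p = 1.4e-07 and 1.8e-07), and by 0.53 ± 0.04 and 0.59 ± 0.04 at 24 h (adjusted p = 3.6e-12 and 1.1e-13). In BT474R, AMOTL1 ranged from 48.6 to 73.1 CPM over all samples, and the log2 fold changes with ligand lay between 0.02 and 0.22 with none called. The value of 0.22 with EGF at 12 h rested on EGF samples at 73.1 and 72.3 CPM and vehicle samples at 64.5 and 60.04 CPM, and it was called under 6 of the 7 alternative fits.

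LATS2 and AJUBA bear on the kinase step. LATS2 in BT474 was at 6.69 and 6.9 CPM at T0, at 12.9 and 11.1 CPM after 1 h of vehicle, at 15.8 and 17.0 CPM with EGF and at 18 and 18.9 CPM with HRG. EGF raised it by 0.44 ± 0.09 (adjusted p = 0.0035) and HRG by 0.62 ± 0.10 (adjusted p = 2e-05). The EGF call was lost without vehicle replicate 2 (0.34) or EGF replicate 2 (0.38) and in a fit of the compared libraries alone (adjusted p = 0.198). It then fell below vehicle with EGF at 12 h (-0.43 ± 0.12, adjusted p = 0.011) and with HRG at 24 h (-0.47 ± 0.12, adjusted p = 0.0031). The 12 h fall was not called without EGF replicate 1 (-0.39), EGF replicate 2 (-0.45) or vehicle replicate 2 (-0.37). In BT474R, LATS2 was between 5.44 and 11.2 CPM with no ligand call.

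AJUBA ranged from 49.9 to 64.5 CPM in BT474 and from 35.8 to 59 CPM in BT474R. With HRG in BT474 it was at 64.5 and 63.5 CPM at 12 h, above both vehicle samples (51.3 and 52.5 CPM), and the log2 fold change was 0.27 ± 0.06 (adjusted p = 0.00052). Smaller rises were called with HRG in BT474 at 24 h (0.18 ± 0.06, adjusted p = 0.028) and with EGF in BT474R at 24 h (0.24 ± 0.08, adjusted p = 0.03). The former was lost without HRG replicate 1 (0.06) or vehicle replicate 2 (0.15) and was 0.28 without HRG replicate 2. It was also lost with the compared libraries alone (adjusted p = 0.0552). The latter was lost without EGF replicate 1 (0.25), EGF replicate 2 (0.23) or vehicle replicate 1 (0.17), and with the compared libraries alone (adjusted p = 0.0583). AJUBA-DT, a transcript divergent from AJUBA, had 3.38% to 31.7% of the counts of AJUBA, and whether the counting used strand is not given in the sources used here.

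Of the co-activators, YAP1 changed slightly with ligand and WWTR1 was not called. YAP1 in BT474 ranged from 431.5 to 516 CPM and in BT474R from 237 to 270.1 CPM, with no overlap between the lines. It was called lower in BT474 at 24 h, by 0.14 ± 0.04 with EGF (adjusted p = 0.0096) and by 0.14 ± 0.04 with HRG (adjusted p = 0.0062). Vehicle samples were then at 501 and 494 CPM, EGF samples at 431.5 and 475 CPM and HRG samples at 470.5 and 444 CPM. The EGF call was lost without EGF replicate 1 (-0.06) or vehicle replicate 1 (-0.14), and the value was -0.22 without EGF replicate 2. It was also lost with the compared libraries alone (adjusted p = 0.0783). The HRG call was lost without HRG replicate 2 (-0.10) or vehicle replicate 1 (-0.13). WWTR1 was called with neither ligand at any time in either line, with log2 fold changes from -0.25 to 0.12 and a range of 24.7 to 41 CPM over all 40 libraries.

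TEAD1, their DNA-binding partner, rose in BT474. In BT474 at 12 h vehicle samples were at 102 and 105 CPM, EGF samples at 120.3 and 118 CPM and HRG samples at 151 and 156 CPM. The 3 groups did not overlap. TEAD1 rose by 0.54 ± 0.05 with HRG (adjusted p = 3e-11) and by 0.19 ± 0.05 with EGF (adjusted p = 0.006) on the log2 scale. At 24 h the rise was 0.25 ± 0.05 with HRG (adjusted p = 0.00013) and 0.14 ± 0.05 with EGF (adjusted p = 0.047). The HRG value at 24 h was 0.15 without HRG replicate 1. The EGF calls were lost at 12 h without vehicle replicate 1 (0.16) and at 24 h without EGF replicate 1 (0.09) or vehicle replicate 2 (0.10), with DESeq2 (adjusted p = 0.0551) or with the compared libraries alone (0.179). In BT474R, TEAD1 was between 29.05 and 40 CPM in every library and was not called with either ligand.

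**Figure D2:**
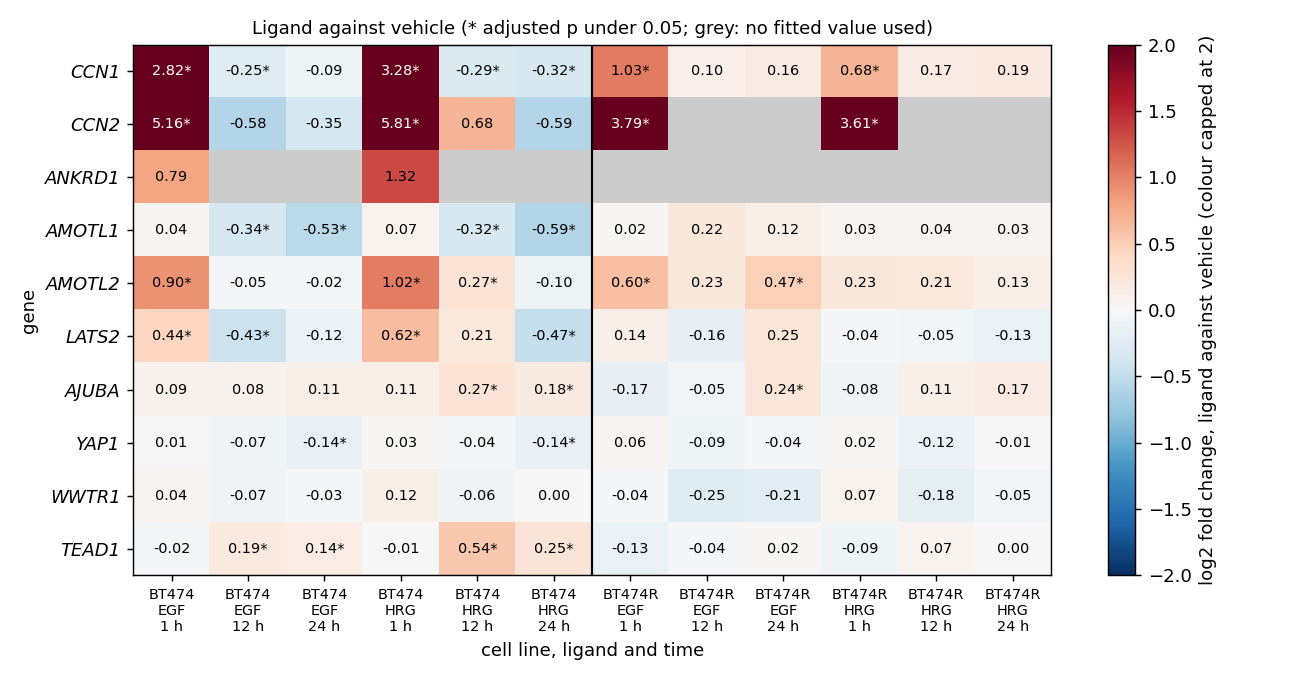
Log2 fold change of each member with EGF or HRG against the vehicle of the same time, by line, ligand and time, with asterisks where the adjusted p of edgeR was under 0.05 and grey where a group was at the floor of 3 counts or the gene was not tested. In BT474, CCN1, CCN2, AMOTL2 and LATS2 rose at 1 h. Changes at 12 h and 24 h there went in both directions, among them lower AMOTL1 and higher TEAD1. In BT474R the called changes were those of CCN1, CCN2, AMOTL2 and AJUBA.

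The ligands were also set against each other within each line. In BT474 at 1 h, HRG gave more CCN1 than EGF (0.46 ± 0.05, adjusted p = 1.5e-07) and more CCN2 (0.65 ± 0.05, adjusted p = 3.8e-11), 2 of 10 members called against 0.139% of all genes. Fitted with the compared libraries alone, neither was called (adjusted p = 0.122 and 0.101). ANKRD1 differed by 0.53 ± 0.58, and the other members lay between 0.01 and 0.18. At 12 h, HRG samples were higher in AMOTL2 (0.32 ± 0.06, adjusted p = 0.00089), LATS2 (0.64 ± 0.12, adjusted p = 0.0012) and TEAD1 (0.35 ± 0.05, adjusted p = 1.5e-05), 3 members against 2.17% of all genes, and LATS2 was not called without EGF replicate 1 (0.61). At 24 h the count was 0, with 0.768% of all genes called. In BT474R edgeR called 0 members at each of the 3 times, where 0.0494%, 1.42% and 5.18% of all genes were called. Unadjusted p-values were under 0.05 for 3 members in BT474 at 24 h and for 2, 1 and 1 members in BT474R, and DESeq2 called 0 in each. For CCN1 and CCN2 in BT474R at 1 h the HRG minus EGF difference was -0.35 ± 0.10 and -0.18 ± 0.28, and without HRG replicate 1 that of CCN1 was called (-0.58, adjusted p = 0.0203). At 24 h in BT474R, AMOTL2 was called without HRG replicate 1 (-0.49) and WWTR1 without HRG replicate 2 (0.33).

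Several members were higher after 1 h in fresh medium with vehicle than at T0. The medium change, the vehicle and the time passed cannot be told apart in this comparison. In BT474, vehicle against T0 gave a log2 fold change of 5.42 ± 0.24 for CCN2 (adjusted p = 1.1e-19), 1.53 ± 0.08 for CCN1 (adjusted p = 2.3e-17), 1.07 ± 0.05 for AMOTL2 (adjusted p = 1e-17) and 0.83 ± 0.11 for LATS2 (adjusted p = 1.4e-06), while AMOTL1 fell by 0.18 ± 0.04 (adjusted p = 0.0037). These were 5 of 10 members, against 6.61% of all genes. The CCN2 value compares 470 counts with 11 (43.4-fold, 95% interval 24 to 87.5 for counting error). In BT474R, AMOTL2 rose by 1.17 ± 0.11 (adjusted p = 1.1e-06) and CCN1 by 0.70 ± 0.11 (adjusted p = 0.00085), 2 of 9 members against 2.24%. CCN2 there went from 1 count to 14, a ratio of 9.52 (1.45 to 403). At 24 h, BT474 vehicle samples were above T0 in CCN1 (0.48 ± 0.09, adjusted p = 0.00015) and below it in WWTR1 (-0.45 ± 0.08), AMOTL2 (-0.35 ± 0.06), AJUBA (-0.21 ± 0.06) and AMOTL1 (-0.16 ± 0.04), 5 members against 11.4% of all genes. In BT474R at 24 h AMOTL2 (-0.59 ± 0.13, adjusted p = 0.0035) and AMOTL1 (-0.38 ± 0.08, adjusted p = 0.0023) were below T0, 2 members against 13.7%. The AMOTL1 calls in BT474 were lost without vehicle replicate 1 at 1 h (-0.17) and without T0 replicate 1 (-0.14) or vehicle replicate 1 (-0.10) at 24 h, and that of AJUBA without T0 replicate 2 (-0.15) or vehicle replicate 2 (-0.16), or with a replicate block within each time point (-0.11, adjusted p = 0.488). Among members not called at 1 h, AJUBA, YAP1, WWTR1 and TEAD1 in BT474 lay between -0.08 and 0.06, and AMOTL1, AJUBA, YAP1, WWTR1 and TEAD1 in BT474R between -0.09 and 0.22. LATS2 in BT474R was at 0.51 ± 0.17 (adjusted p = 0.16), and ANKRD1 in BT474 had 10 counts with vehicle and 5 at T0. These vehicle samples are also the controls of the ligand comparisons.

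**Figure D3:**
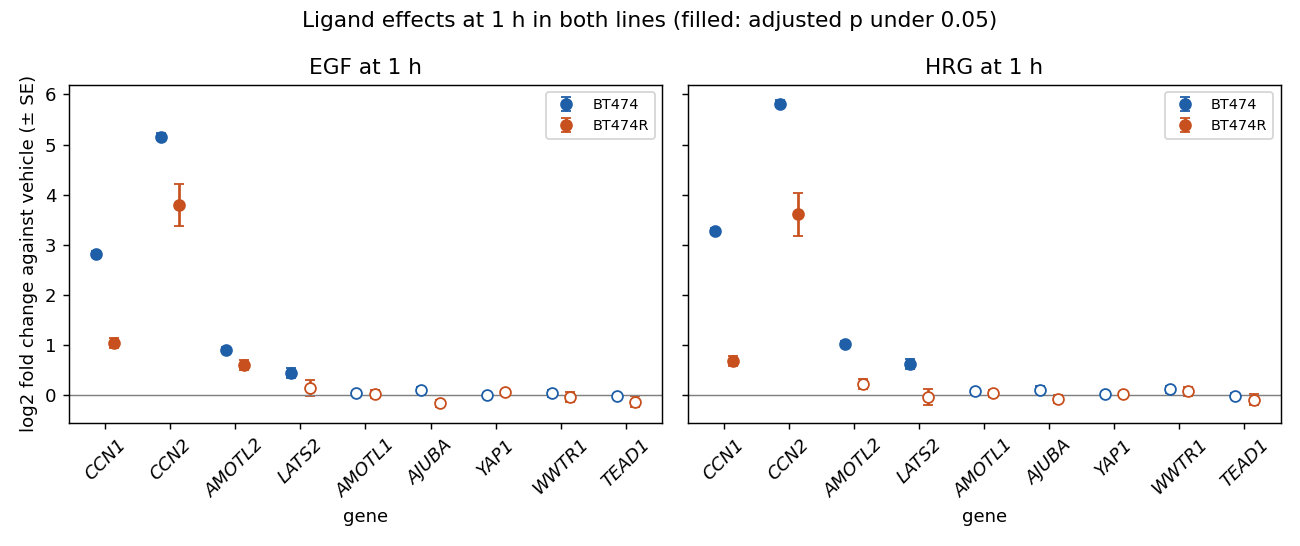
Log2 fold change against vehicle at 1 h, ± SE, for 9 members with EGF (left) and HRG (right) in BT474 (blue) and BT474R (orange), with filled points where the adjusted p was under 0.05. CCN1 stood at 2.82 and 3.28 in BT474 and at 1.03 and 0.68 in BT474R, and AMOTL1, AJUBA, YAP1, WWTR1 and TEAD1 lay near 0 in both lines.

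Before ligand, most members were less abundant in BT474R. At T0, TEAD1 was at 116 and 108 CPM in BT474 and at 29.05 and 32.4 CPM in BT474R (log2 difference -1.86 ± 0.09, adjusted p = 1.8e-19). AMOTL2 differed by -1.94 ± 0.10 (adjusted p = 3.2e-19) and AMOTL1, at 185 and 181 against 67.3 and 69.6 CPM, by -1.42 ± 0.06 (adjusted p = 9.6e-21). YAP1 was at 509.7 and 500.6 CPM against 258 and 259 CPM (-0.97 ± 0.04, adjusted p = 1.4e-20). AJUBA (-0.43 ± 0.07) and WWTR1 (-0.42 ± 0.09) were also lower, LATS2 was not called (0.02 in log2), and CCN1 was higher in BT474R (0.37 ± 0.12, adjusted p = 0.011). The CCN1 call was lost without BT474 replicate 2 (0.28), BT474R replicate 1 (0.30) or BT474R replicate 2 (0.37), and with a replicate block within each time point (0.35, adjusted p = 0.147). CCN2 had 11 counts in BT474 and 1 in BT474R, a ratio of 9.03 (95% interval 1.31 to 389 for counting error), and was not called, and ANKRD1 had 5 counts in BT474 and 1 in BT474R. In all, 7 of 9 members were called at T0, against 46.9% of all genes, so that a difference between the lines was common among genes at large.

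**Figure D4:**
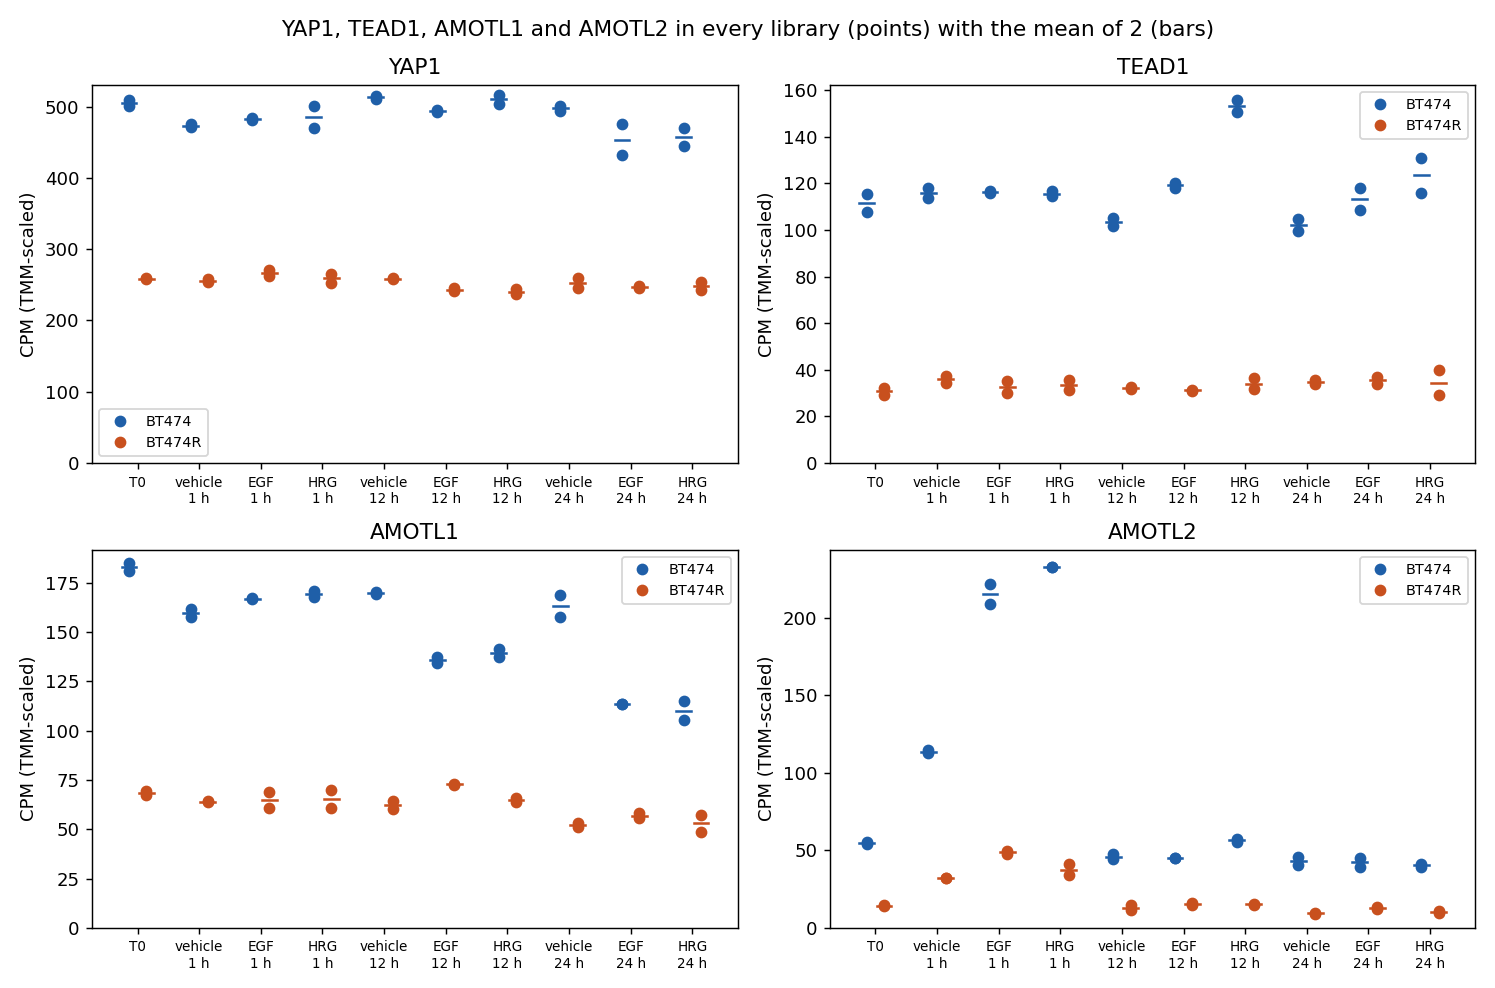
YAP1, TEAD1, AMOTL1 and AMOTL2 in every library, in TMM-scaled CPM on linear axes from 0, for T0 and for vehicle, EGF and HRG at each time. Points are libraries (BT474 blue, BT474R orange) and bars are means of 2. BT474 libraries lay above BT474R libraries of the same treatment and time for all 4 genes, TEAD1 was highest in BT474 with HRG at 12 h (151 and 156 CPM), and AMOTL2 was highest at 1 h in both lines.

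Whether a ligand effect differed between the lines was tested directly as an interaction. At 1 h the CCN1 response was smaller in BT474R, with a log2 difference of -1.81 ± 0.12 with EGF (adjusted p = 2.6e-12) and -2.61 ± 0.12 with HRG (adjusted p = 3.1e-17), and the AMOTL2 response was smaller with HRG (-0.81 ± 0.11, adjusted p = 8.4e-06). These were 1 of 9 members with EGF, against 0.138% of all genes, and 2 with HRG, against 0.544%. For CCN2 the difference was -1.40 ± 0.58 with EGF (adjusted p = 0.77) and -2.21 ± 0.62 with HRG (adjusted p = 0.14). The HRG value passed the threshold with DESeq2 (adjusted p = 8.77e-05), without a filter on low counts (0.00198), with the compared libraries alone (0.0218) and without BT474R HRG replicate 1 (-2.81, adjusted p = 0.00611). LATS2 with HRG, at -0.68, was not called in the main fit. It passed the threshold without a filter (adjusted p = 0.00938) and with the compared libraries alone (0.0159). It was also called without BT474R HRG replicate 1 (-0.90). AMOTL2 with EGF, at -0.32, was not called in the main fit but was with the compared libraries alone (adjusted p = 0.009). At 12 h the AMOTL1 response differed with EGF (0.55 ± 0.09, adjusted p = 8.5e-05, 1 member against 1.96%). With HRG both AMOTL1 (0.34 ± 0.09, adjusted p = 0.015) and TEAD1 (-0.48 ± 0.12, adjusted p = 0.015) differed, 2 members against 4.07%. CCN1 with HRG at 12 h, at 0.45, was not called in the main fit. It passed the threshold with DESeq2 (adjusted p = 0.0493), without a filter (0.0198) and with the compared libraries alone (0.0228). Its value with HRG at 24 h was 0.47, called only without a filter (adjusted p = 0.0169). At 24 h AMOTL1 differed with EGF (0.65 ± 0.09, adjusted p = 3.4e-06) and HRG (0.59 ± 0.09, adjusted p = 3.4e-05), and AMOTL2 with EGF (0.49 ± 0.14, adjusted p = 0.042). These were 2 members against 4.01% with EGF and 1 against 3.33% with HRG.

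Some of these interaction calls turned on 1 library or on which libraries were fitted. The 12 h TEAD1 call was lost without BT474 HRG replicate 2 (-0.44), BT474 vehicle replicate 1 (-0.44), BT474R HRG replicate 2 (-0.38) or either BT474R vehicle replicate (-0.48 and -0.47). That of AMOTL1 with HRG at 12 h was lost without BT474 HRG replicate 1 (0.33), BT474 vehicle replicate 2 (0.34), BT474R HRG replicate 2 (0.33) or BT474R vehicle replicate 2 (0.31). The 24 h AMOTL2 call was lost without BT474 EGF replicate 2 (0.41), BT474 vehicle replicate 1 (0.39), BT474R EGF replicate 2 (0.41) or BT474R vehicle replicate 1 (0.43). With the compared libraries alone that call was lost (0.51, adjusted p = 0.0646), as was AMOTL1 with HRG at 24 h (0.59, adjusted p = 0.0637). TEAD1 with HRG at 24 h was not called with all libraries (-0.28) and was called without BT474R HRG replicate 1 (-0.51, adjusted p = 0.00493).

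The change of each ligand effect from 1 h to 12 h was tested next. Between 1 h and 12 h in BT474, the EGF effect changed by -5.74 ± 0.54 for CCN2 (adjusted p = 6.6e-10), -3.07 ± 0.10 for CCN1 (adjusted p = 4.4e-23), -0.95 ± 0.08 for AMOTL2, -0.87 ± 0.16 for LATS2 and -0.38 ± 0.06 for AMOTL1, 5 of 10 members against 7.72% of all genes. The EGF effect on TEAD1 changed by 0.21 and was not called in this fit. It was called with DESeq2 (adjusted p = 0.0465), with its size factors in edgeR (0.035) and with filterByExpr (0.0258). The same held without a filter (0.0246), with the compared libraries alone (0.00229) and with a replicate block within each time point (0.0166). The HRG effect changed by -5.13 ± 0.50 for CCN2 (adjusted p = 4.3e-10), -3.57 ± 0.10 for CCN1 (adjusted p = 1.3e-25), -0.75 ± 0.08 for AMOTL2, -0.39 ± 0.06 for AMOTL1 and 0.55 ± 0.07 for TEAD1, 5 members against 14.2%. In BT474R the EGF effect on CCN1 changed by -0.93 ± 0.15 (adjusted p = 0.00057, 1 of 9 members against 4.43%). With HRG edgeR called 0 members there (0.992% of all genes), 2 had an unadjusted p under 0.05 and DESeq2 called 0. CCN2 in BT474R was under the floor at 12 h, so no value is given. Without BT474 vehicle replicate 1 of 1 h, LATS2 was called with HRG in BT474 (-0.52), and without BT474R HRG replicate 2 of 1 h, CCN1 was called with HRG in BT474R (-0.68).

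Other genes of the pathway were followed as lists. Some calls of single list genes were lost when 1 library was left out, and these losses are not itemized here. At 1 h none of the 16 Hippo kinases and scaffolds and none of the 6 other TEAD factors and VGLL cofactors was called by edgeR with either ligand in either line, and DESeq2 called 0 in each. Unadjusted p-values were under 0.05 for 1 Hippo gene with EGF and 2 with HRG in each line and for 0 of the TEAD list. Calls were rare among all genes at this time. In BT474, EGF had 1.65% called upward and 0.533% downward, and the HRG shares were 2.16% upward and 0.604% downward. In BT474R, EGF had 0.416% upward and 0.0412% downward, and HRG 0.169% upward and 0% downward. With shares this low, lists of 16 or 6 genes may hold no call without differing from genes at large. The same shares are the background for the calls below. Among 17 other YAP-TEAD targets, 15 were tested in BT474, and NUAK2, a stress-related kinase, was the one called at 1 h. It fell by 1.05 ± 0.13 with EGF (adjusted p = 1.5e-07) and by 1.12 ± 0.13 with HRG (adjusted p = 1.1e-07). The list's median at 1 h was 0.02 with EGF and 0.06 with HRG, beside 0.00 and -0.01 for all genes tested. In BT474R, 16 were tested, GADD45A fell by 0.49 ± 0.10 with EGF (adjusted p = 0.026), and none was called with HRG (1 with an unadjusted p under 0.05, and 0 by DESeq2). Of 14 genes of the MRTF-SRF pathway, an actin-linked arm of the serum response, 12 were tested in BT474. With EGF 4 rose and with HRG 5 rose at 1 h, against 1.65% and 2.16% of all genes called up, with medians of 0.22 and 0.30 beside 0.00 and -0.01 for all genes. DESeq2 called 3 genes of the list with EGF and 6 with HRG, counted in either direction. SRF itself rose by 0.90 ± 0.05 (EGF) and 1.11 ± 0.05 (HRG), and FHL2, a LIM-domain cofactor, by 0.60 ± 0.13 and 0.98 ± 0.13. In BT474R, SRF was the one gene of that list called with EGF (0.38 ± 0.07, adjusted p = 0.0062), and none was called with HRG (2 with an unadjusted p under 0.05, and 1 by DESeq2).

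At 12 h and 24 h these lists changed in both directions. In BT474 the Hippo list had 3 genes higher and 1 lower after 12 h of EGF and 4 and 3 after 24 h, while HRG gave 4 and 2 at 12 h and 5 and 3 at 24 h. Among all genes the shares higher and lower were 9.04% and 6.99%, then 9.71% and 6.65% for EGF, and 13.3% and 12.5%, then 12.5% and 11.6% for HRG, so several of these counts were near the background. WWC1 (KIBRA), an upstream Hippo scaffold, rose in all 4 comparisons, by 0.34 to 0.48 on the log2 scale, and TAOK3, a kinase, fell in all 4, with values from -0.40 to -0.25. Of the 6 TEAD factors and cofactors in BT474 at 12 h, TEAD4 was higher, by 0.46 ± 0.07 (EGF) and 0.45 ± 0.07 (HRG). VGLL4, a TEAD cofactor that represses, was lower (-0.21 ± 0.06 and -0.26 ± 0.06), as was TEAD2 with HRG (-0.16 ± 0.05), and the list medians were -0.14 and -0.09. Of the other targets in BT474, 4 rose and 3 fell with EGF at 12 h and 3 rose and 2 fell with HRG, against the shares of all genes just given. DOCK5, an exchange factor for Rac, rose by 0.39 ± 0.07 with EGF and 0.53 ± 0.07 with HRG, while IGFBP3, a secreted IGF-binding protein, had values of -1.69 ± 0.23 and -1.76 ± 0.22. In BT474R at 12 h, 3 of 16 rose and 3 fell with EGF (6.85% and 5.13% of all genes), and 3 rose and 2 fell with HRG (2.38% and 1.73%). DOCK5 rose by 0.99 ± 0.11 with EGF and 0.76 ± 0.11 with HRG at 12 h, and MYOF (myoferlin), a membrane repair protein, by 1.24 ± 0.07 and 0.84 ± 0.07. IGFBP3 was lower there as well (-1.54 ± 0.19 and -1.30 ± 0.18), and GADD45A was lower with EGF (-0.62 ± 0.12). F3 (tissue factor) rose by 2.14 ± 0.24 with EGF at 24 h. At 24 h of EGF in BT474R, 5 of the 16 other targets rose and 2 fell (9.95% and 7.37% of all genes), with a median of 0.30 beside -0.01 for all genes. CCN3, another CCN protein, was higher in BT474 after 12 h of EGF (0.61 ± 0.16) and of HRG (1.13 ± 0.14). The MRTF-SRF list had later calls in both lines. Of its 12 tested genes in BT474, EGF gave 5 increases and 2 decreases at 12 h, then 4 and 2 at 24 h. HRG gave 3 increases and 2 decreases at each of these times. In BT474R, EGF gave 4 increases and 1 decrease at 12 h, then 5 and 2 at 24 h. HRG gave 3 increases there at 12 h and 1 at 24 h, without decreases. The Hippo list in BT474R held 2 increases and 2 decreases after 12 h of EGF, then 3 and 1 at 24 h. HRG gave it 1 increase and 1 decrease at both times. The background is the shares of all genes above, and 1.89% upward and 0.889% downward for HRG in BT474R at 24 h. Tested as interactions, the effects on the other targets differed most often with EGF at 24 h, where 6 of 15 were more positive in BT474R and none more negative, with 4.01% of all genes called in either direction. For the MRTF-SRF list, the 1 h effect was more negative in BT474R for 1 of 12 genes with EGF (0.138% of all genes called) and for 4 with HRG (0.544%). Of the Hippo list, none of 16 differed at 1 h with either ligand by edgeR, with DESeq2 calling 0 and an unadjusted p under 0.05 for 2 with EGF and 1 with HRG.

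The genes whose levels followed CCN1 and CCN2 most closely were sought over the 20 group means, among 15067 genes with a mean of at least 1 CPM. The groups share lines and treatments, so r is a description. Nearest to CCN1 were MYADM (r = 0.960), IER2 (0.957), EDN1 (0.952), UBALD1 (0.947) and CSRNP1 (0.947). Nearest to CCN2 were SERTAD1 (0.970), ADAMTSL4 (0.967), MYADM (0.962), TIGAR (0.959) and NEDD9 (0.959), and r between CCN1 and CCN2 was 0.938. CCN2 was at the floor in every BT474R group at T0, 12 h and 24 h, and r does not give the size of a change. In BT474 at 1 h, TIGAR had means of 60.9 (vehicle), 76.0 (EGF) and 74.8 CPM (HRG). In the same order, ADAMTSL4 was at 4.80, 8.41 and 9.60 CPM and SERTAD1 at 14.3, 27.4 and 31.4 CPM. NEDD9 was at 70.2, 134 and 158 CPM and MYADM at 179, 357 and 401 CPM. EDN1, which encodes the peptide endothelin-1, had a mean of 7.90 CPM with vehicle, 61.3 CPM with EGF and 85.6 CPM with HRG in BT474 at 1 h. IER2, an immediate early gene, was at 112, 316 and 356 CPM in the same groups.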

How the data were processed

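RNA from 40 samples of BT474 and BT474R was sequenced from poly(A)-selected libraries. Per the labels, reads were trimmed with Trim Galore 0.6.6 and counted per gene with featureCounts on GRCh38.p13, and the authors deposited raw counts. The annotation release, strand setting and treatment of multimapping reads are not given in the sources used here. From the counts, genes were kept when 50% or more of libraries had 1 count or more. They were tested with edgeR's quasi-likelihood test (edgeR 4.0.16 in R 4.3.3, TMM, all 20 libraries of a line in 1 fit, or all 40 libraries for comparisons between lines), and p-values were adjusted by Benjamini-Hochberg across every gene of the fit (threshold 0.05). SE is the log2 fold change divided by the square root of F. Scripts were tested on simulated data. Alternatives were DESeq2 1.42.0, its size factors, other filters, the compared libraries alone, replicate blocks and leaving out each library. All 10 members were followed in every comparison, and members not called may be given as ranges. From other lists, up to 3 called genes per direction with the largest change and a mean of at least 1 CPM could be named, and for CCN1 and CCN2 the 5 genes of highest r. Members and lists were chosen with earlier results of these data known. Intervals and floors cover counting error only.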

Additional observations from a re-analysis of the deposited data

Results flagged for a closer look

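Each of the following effects differed between lines or between times by the interaction term of edgeR's quasi-likelihood fit, and no explanation was weighed. Effects are log2 differences with standard errors and adjusted p-values. Between the lines (BT474R minus BT474), CCN1 differed by -1.81 ± 0.12 with EGF at 1 h and by -2.61 ± 0.12 with HRG at 1 h. AMOTL2 differed by -0.81 ± 0.11 with HRG at 1 h and by 0.49 ± 0.14 with EGF at 24 h. AMOTL1 differed by 0.55 ± 0.09 with EGF at 12 h, 0.65 ± 0.09 with EGF at 24 h, 0.34 ± 0.09 with HRG at 12 h and 0.59 ± 0.09 with HRG at 24 h. TEAD1 differed by -0.48 ± 0.12 with HRG at 12 h. The largest adjusted p among these 9 effects was 0.042 (AMOTL2 with EGF at 24 h). Which of these calls were lost under other fits is given above.

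Between times (12 h minus 1 h) in BT474, the EGF effect differed by -3.07 for CCN1, -5.74 for CCN2, -0.38 for AMOTL1, -0.95 for AMOTL2 and -0.87 for LATS2. The HRG effect differed by -3.57 for CCN1, -5.13 for CCN2, -0.39 for AMOTL1, -0.75 for AMOTL2 and 0.55 for TEAD1. In BT474R the EGF effect on CCN1 differed by -0.93.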

How the results depend on the processing

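Of the 79 called member results, 77 kept their call with DESeq2, 78 with DESeq2 size factors, 79 with filterByExpr, 79 without a filter, 69 when the compared libraries were fitted alone, 79 with a replicate block and 77 with a replicate block within each time point. None reversed. With EGF in BT474R at 12 h, where no member was called, DESeq2, DESeq2 size factors, filterByExpr, no filter and the replicate block within each time point each called 1 member (AMOTL1), and the compared libraries alone called 2. Fitting the compared libraries alone, which leaves fewer samples to estimate the spread, also gave 1 in place of 3 members with EGF in BT474 and 1 in place of 2 in BT474R at 24 h, 0 in place of 2 for HRG against EGF in BT474 at 1 h, and 4 in place of 2 for vehicle against T0 in BT474R at 1 h. For the difference between lines it gave 2 in place of 1 with EGF at 1 h and at 12 h, 1 in place of 2 with EGF at 24 h, 4 in place of 2 with HRG at 1 h and 0 in place of 1 with HRG at 24 h. For 12 h against 1 h in BT474R it gave 2 in place of 1 with EGF and 1 in place of 0 with HRG. Without a filter the count was 1 in place of 0 for HRG against EGF in BT474R at 1 h, 4 in place of 2 and 2 in place of 1 for the HRG effect between lines at 1 h and 24 h, and 1 in place of 0 for the HRG effect at 12 h against 1 h in BT474R. The cause was not tested.

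Leaving out 1 library at a time lost 49 calls and gained 8 over all members. The number of members called then ranged from 2 to 3 with EGF in BT474 at 12 h (4 with all libraries) and from 1 to 3 at 24 h, from 0 to 2 with EGF in BT474R at 24 h, and from 1 to 2 with HRG in BT474R at 1 h. For HRG against EGF in BT474R it ranged from 0 to 1 at 1 h and at 24 h. For differences between lines it ranged from 1 to 2 with EGF at 24 h, from 2 to 4 with HRG at 1 h, from 0 to 2 with HRG at 12 h and from 1 to 2 with HRG at 24 h. For the HRG effect at 12 h against 1 h in BT474R it ranged from 0 to 1.

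Deviations of samples with the same replicate number correlated from -0.079 to 0.263 over 45 pairs in BT474 and from -0.216 to 0.385 over 45 pairs in BT474R. At 24 h alone the 3 correlations were 0.134 to 0.263 in BT474 and 0.0175 to 0.385 in BT474R. With 2 numbers per group and no label that ties them to a culture or day, the numbers were not taken as pairing, although samples of 24 h deviated together in part. With the number as a replicate block 1 further member was called (LATS2, HRG at 12 h against 1 h in BT474, -0.41). This block changed no other call, and the replicate block within each time point ended the calls of AJUBA for vehicle against T0 at 24 h in BT474 (-0.11) and of CCN1 between lines at T0 (0.35). Groups of 2 leave little information on spread, and CCN2 in BT474R and ANKRD1 were limited by counts near the floor.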

Other observations

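At T0 the pathway lists differed between the lines in both directions. Of 15 other YAP-TEAD targets tested, 2 were higher and 8 lower in BT474R, with a median log2 difference of -0.66 beside 0.00 for all genes tested. Of 16 Hippo kinases and scaffolds 7 were higher and 6 lower, of 6 TEAD factors and cofactors 2 and 2, of 3 other CCN genes 2 and 1, and of 12 MRTF-SRF genes 4 and 4. With 46.9% of all genes called in this comparison, these counts are given as a description.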
